A study of Mus musculus with 20 samples.

Results

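The genes described here are the nuclear protein-coding genes of the mitochondrial respiratory chain and ATP synthase, 96 of 21900 protein-coding mouse genes in the RefSeq table used. They were chosen by symbol: Nduf (a, b, c, s and v), Uqcr, Sdha to Sdhd, Cox4i, Cox5, Cox6, Cox7, Cox8 and Atp5. The set held 37 subunits of complex I, 8 complex I assembly factors (Ndufaf) that the symbol rule also takes, 4 subunits of complex II, 8 of complex III, 12 of complex IV, 17 of ATP synthase, 3 heart and muscle isoforms (Cox6a2, Cox7a1 and Cox8b) and 7 other isoforms or gene copies. An Ensembl identifier was found for 95 of the 96, which allowed a match to the RNA and m6A files.

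The samples were mouse embryonic stem cells (ESC) and cells made from them by embryoid body formation and replating (labelled ESC-derived cardiomyocyte, here CM), each WT or Mettl3-KO, all of strain C57BL/6. METTL3 is the catalytic subunit of the nuclear enzyme that writes N6-methyladenosine (m6A) on RNA. Chromatin-associated RNA (chrRNA) was sequenced in 1 library for each of the 4 groups, m6A positions in chromatin RNA were listed once per group after enrichment with m6A antibodies, and accessible chromatin was measured by ATAC-seq in 3 libraries per group. The labels give neither the deleted part of Mettl3, nor the number of clones, nor whether replicates were separate cultures, so the p-values below measure the spread between these libraries only, which may be technical. One of the 12 ATAC libraries, CM KO replicate 3, carries total RNA as its molecule label, although its file has the same peak-list layout as the others.

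As background, the respiratory chain passes electrons from NADH through complex I, or from succinate through complex II, to complex III and then to complex IV, which reduces oxygen, while complexes I, III and IV pump protons that ATP synthase uses to make ATP. Most subunits are encoded in the nucleus, with a small set encoded by mitochondrial DNA, and heart muscle is among the tissues richest in these complexes. Several complex IV subunits have a form used in heart and skeletal muscle, COX6A2, COX7A1 and COX8B, beside a form used in most other tissues, COX6A1, COX7A2 and COX8A.

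Promoter sequence is shown first, because nearly all members had an ATAC interval at the start in every library. Of the 96 members, 78 had an entry in the RefSeq promoter table (GRCm38.p6, 250 bases before to 50 after each start). The 100 bases before the start are printed for the heart isoforms that had an entry and for the member of each complex with the highest level in WT ESC, with exact GGGCGG or CCGCCC in capitals.
Cox7a1, chr7:30184071-30184170, plus strand: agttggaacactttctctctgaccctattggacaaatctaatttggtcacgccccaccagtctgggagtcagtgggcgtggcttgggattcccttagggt
Cox8b, chr7:140900447-140900546, minus strand: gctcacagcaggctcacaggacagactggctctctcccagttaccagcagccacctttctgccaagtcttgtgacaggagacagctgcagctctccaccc
Ndufv1, chr19:4012756-4012855, minus strand: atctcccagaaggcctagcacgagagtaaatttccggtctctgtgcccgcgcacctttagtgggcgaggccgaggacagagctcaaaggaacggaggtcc
Sdha, chr13:74350241-74350340, minus strand: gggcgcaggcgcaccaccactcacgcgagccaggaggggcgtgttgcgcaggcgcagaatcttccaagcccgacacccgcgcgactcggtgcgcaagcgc
Uqcr10, chr11:4704345-4704444, minus strand: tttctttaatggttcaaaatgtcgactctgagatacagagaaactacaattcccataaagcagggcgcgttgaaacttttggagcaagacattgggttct
Cox7c, chr13:86046796-86046895, minus strand: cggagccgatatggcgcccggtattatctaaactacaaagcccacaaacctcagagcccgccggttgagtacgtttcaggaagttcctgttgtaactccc
Atp5b, chr10:128083207-128083306, plus strand: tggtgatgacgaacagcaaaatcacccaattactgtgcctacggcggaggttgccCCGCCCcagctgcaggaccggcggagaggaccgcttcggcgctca

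Exact matches to letters of 5 factors linked to respiratory chain genes, a list chosen after other values were seen, were counted on both strands of the 300 bases, over all starts a gene has in the table. The NRF1 letters, in capitals in the windows below and the same on both strands, were in 7 of the 78 members (8.97%) and in 1.47% of all 17492 protein-coding genes with an entry. The YY1 letters AAGATGGCG were in 8 members (10.3%) and in 2.14% of all, and the ESRRA letters TCAAGGTCA in 2 members, Atp5g3 and Sdhd (2.56%), and in 0.377% of all. The ETS letters CCGGAAGT were in 5 members, Atp5h, Cox8a, Ndufs3, Uqcr11 and Uqcrh (6.41%, against 5.69% of all), and the SP1 letters GGGCGG in 35 members (44.9%, against 49.2%). Genes of at least 0.5 RPKM in any library held these letters more often than all genes did for NRF1 (2.59%), YY1 (4.47%), ETS (11%) and SP1 (72.2%). A match describes the letters of this window and is not a binding measurement.

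The NRF1 letters lay before the start in Atp5g2, Atp5k, Cox6a1, Ndufa11 and Ndufaf4 and after it in Ndufaf5 and Uqcrc1. Windows of 30 bases around them are shown, with the letters in capitals.
Atp5g2, chr15:102671070-102671099, minus strand: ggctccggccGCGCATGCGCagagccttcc
Atp5k, chr5:108434430-108434459, minus strand: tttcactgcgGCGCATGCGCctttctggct
Cox6a1, chr5:115349101-115349130, minus strand: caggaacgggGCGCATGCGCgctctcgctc
Ndufa11, chr17:56717692-56717721, plus strand: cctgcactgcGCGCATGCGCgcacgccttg
Ndufaf4, chr4:24897960-24897989, plus strand: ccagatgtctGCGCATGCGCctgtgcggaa
Ndufaf5, chr2:140170652-140170681, plus strand: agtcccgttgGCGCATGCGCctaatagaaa
Uqcrc1, chr9:108936668-108936697, plus strand: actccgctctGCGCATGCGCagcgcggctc

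The YY1 letters began 10 to 35 bases after the start in 7 of the 8 members, all on the gene's own strand, and 88 bases before it in Atp5j. Of the 8, 5 encode complex I subunits (Ndufa9, Ndufc1, Ndufs4, Ndufs6 and Ndufs7), and complex I makes up 33 of the 78 members with an entry.
Atp5j, chr16:84835045-84835074, minus strand: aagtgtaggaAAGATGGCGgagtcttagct
Atp5j2, chr5:145191499-145191528, minus strand: ccaggacttcAAGATGGCGtcactcggtga
Ndufa9, chr6:126849096-126849125, minus strand: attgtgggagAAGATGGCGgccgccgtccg
Ndufaf8, chr11:120098934-120098963, plus strand: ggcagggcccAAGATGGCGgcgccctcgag
Ndufc1, chr3:51408914-51408943, minus strand: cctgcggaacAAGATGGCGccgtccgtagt
Ndufs4, chr13:114388045-114388074, minus strand: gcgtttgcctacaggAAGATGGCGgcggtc
Ndufs6, chr13:73328433-73328462, minus strand: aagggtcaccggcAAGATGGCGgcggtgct
Ndufs7, chr10:80249463-80249492, plus strand: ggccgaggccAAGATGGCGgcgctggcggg

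The chrRNA values were RPKM per gene, and their step sizes correspond to an estimated 2.79e+07 to 2.98e+07 reads per library. Mettl3 itself stood at 1.73 RPKM in WT ESC, 1.28 in KO ESC, 1.18 in WT CM and 1.07 in KO CM, and since the deleted part is not given, these levels do not check the labels. The label cardiomyocyte was checked against 16 cardiomyocyte genes, whose summed level was 1.20 and 1.36 RPKM in WT and KO ESC, 9.06 in WT CM and 1.21 in KO CM. In KO CM 14 of the 16 were listed, none reached 1 RPKM, and Myl2 and Nppa were not listed, and the sum was not above that of KO ESC. By gene, 10 of the 16 were higher in KO CM than in KO ESC or listed only there (Tnnt2 at 0.103 and Tnnc1 at 0.108 RPKM in KO CM), and 4 were lower, among them Ttn (0.491 RPKM in KO ESC and 0.140 in KO CM). Both CM libraries held other lineages: 7 fibroblast genes summed to 31.4 RPKM in WT CM and 8.81 in KO CM against at most 0.253 in ESC, 4 blood genes to 40.7 and 45.1 against at most 0.126, and 6 visceral endoderm genes to 15.5 and 5.98 against at most 0.0543. The 9 ESC genes summed to 75.9, 72.9, 9.35 and 16.4 RPKM in WT ESC, KO ESC, WT CM and KO CM. The part of this cell mixture in the results below was not tested, and fewer cells of a type cannot be told apart from less RNA per cell in these bulk samples.

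Chromatin RNA of the respiratory chain genes was low to moderate and of similar size across most subunits. All 4 libraries listed 85 of the 96 members. The median over the listed members was 1.38 RPKM in WT ESC, 1.25 in KO ESC, 0.853 in WT CM and 1.07 in KO CM, and 59, 53, 37 and 46 members reached 1 RPKM. RPKM is per gene length, but the gene models behind the lengths are not stated, so levels set side by side between genes are approximate. By complex, the median in WT ESC was 1.03 RPKM for complex I, 1.19 for complex II, 1.86 for complex III, 2.83 for complex IV and 2.18 for ATP synthase, and 0.825 for the complex I assembly factors.

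**Figure D1:**
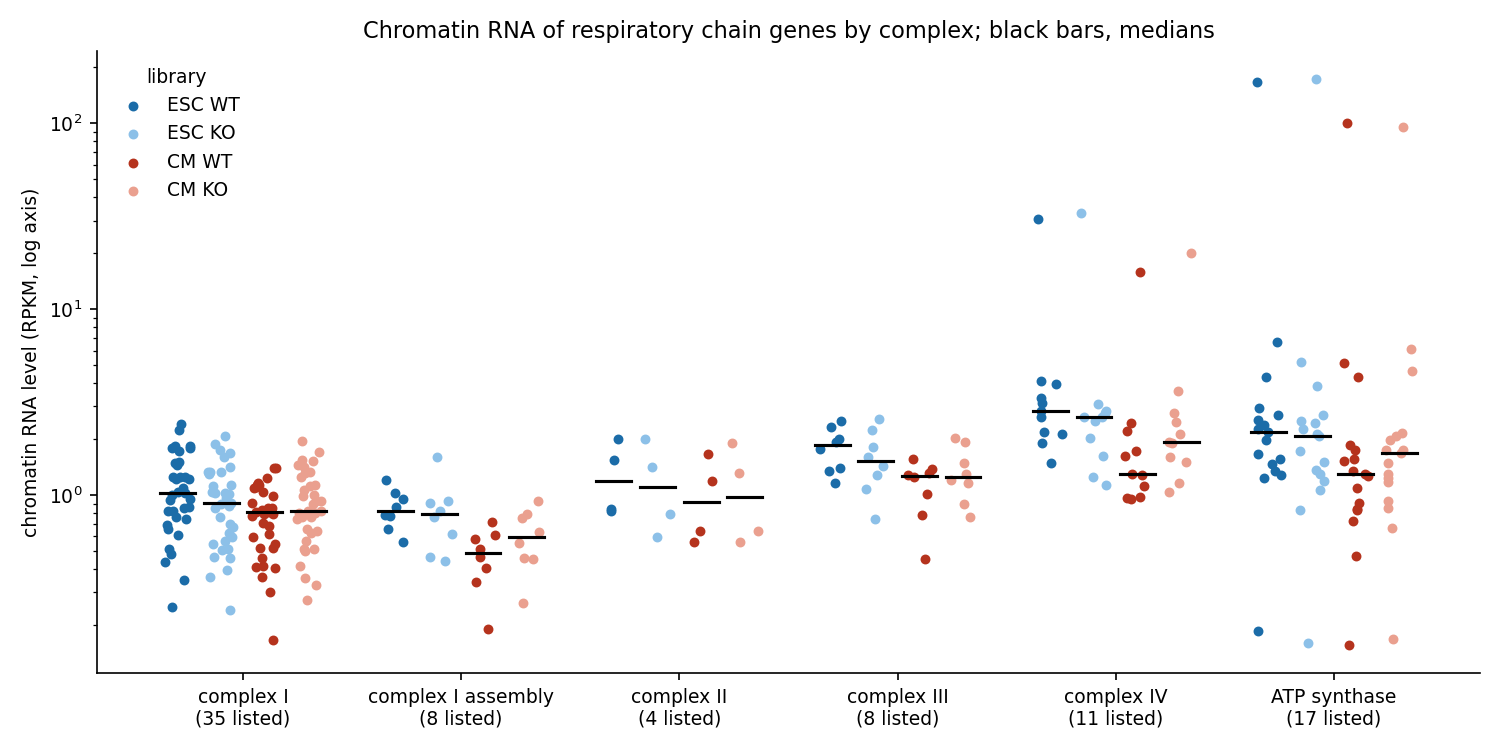
Chromatin RNA level (RPKM, log axis) of each listed member in the 4 libraries, grouped by complex, with 1 point per gene and a black bar at the median. Complex IV and ATP synthase medians lie above those of complex I in each library (2.83 and 2.18 against 1.03 RPKM in WT ESC), and Atp5b and Cox7c stand far above all other members.

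The highest members were Atp5b, the catalytic beta subunit of ATP synthase, and Cox7c, a small subunit of complex IV. Atp5b stood at 166.6 RPKM in WT ESC, 173.0 in KO ESC, 99.8 in WT CM and 95.8 in KO CM. Its span holds the small RNA genes Snord59a and Mir677, and the part of their reads in its value was not tested. Cox7c, at 30.5, 33.0, 15.9 and 20.2 RPKM in the same order, spans the small nucleolar RNA gene Gm22574. In the other complexes the highest members in WT ESC were Ndufv1, the subunit that oxidises NADH (2.42 RPKM), Sdha, the flavoprotein of complex II (2.0), and Uqcr10 of complex III (2.52). Atp5o, at 0.157 to 0.186 RPKM, was the lowest ATP synthase member in each library. Its m6A positions run as far as 241953 bases from the gene start, past the 6408 bases of its RefSeq span, and the part of a longer gene model in its RPKM was not tested.

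Of the heart and muscle isoforms, only Cox6a2 had a chromatin RNA value. Cox7a1 and Cox8b were not listed in any library, which does not show that their RNA was low, since common subunits such as Cox4i1, Ndufa13 and Ndufb1 were not listed either. Cox6a2 was listed at 0.0375 RPKM in WT ESC and 0.107 in WT CM, which correspond to an estimated 1 and 3 reads (ratio 2.85, 95% exact counting interval 0.229 to 149), and it was not listed in either KO library. The paralogs used in other tissues were among the higher complex IV members: Cox6a1 stood at 4.11, 2.83, 2.43 and 3.62 RPKM, Cox7a2 at 3.94, 3.11, 2.23 and 2.76, and Cox8a at 3.13, 2.65, 1.62 and 2.48 (WT ESC, KO ESC, WT CM and KO CM). Cox7a2l, related in sequence to Cox7a2 and used in joining complexes III and IV, stood at 2.18, 1.63, 1.12 and 1.16 RPKM.

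Of the other isoforms, Cox4i2, the lung-type form of the complex IV subunit 4, and Ndufa4l2, a paralog of Ndufa4, were listed in the CM libraries only. Cox4i2 stood at 0.128 RPKM in WT CM and 0.139 in KO CM, and Ndufa4l2 at 0.261 and 0.272. Cox6b2, the testis form of Cox6b, had a higher RPKM than its common paralog Cox6b1 in every library, at 2.69, 2.29, 1.17 and 1.95 against 1.48, 1.13, 0.952 and 1.04. Members with no value in any chrRNA file were Cox4i1, Cox7a1, Cox8b, Cox8c, Ndufa13, Ndufb1, Ndufb4b and Ndufb4c, and no level is given for them.

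In WT CM the respiratory chain genes had less chromatin RNA than in WT ESC, across all complexes, as did most genes. A total of 59 members reached 1 RPKM in one or both libraries and could be compared, and 40 of them were at least 1.5-fold lower in WT CM and 0 at least 1.5-fold higher. Over all 5064 protein-coding genes in the same filter, 40.3% were lower and 13.4% higher by that fold. With libraries scaled to equal all-gene medians, 11 of the 59 members were lower and 0 higher, against 17.8% and 23.2% of all genes, so the share of lower members was then near that of all genes. The median ratio was 0.613 for the members and 0.744 for all genes, and 58 of the 59 members were below 1. On the log2(RPKM + 1) scale, which understates changes of low genes, the median difference was -0.42 for the members and -0.25 for all genes. Since each group had 1 library, these are differences between libraries without a replicate check, and the intervals given below for single ratios cover counting error only, from estimated reads.

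Complex IV was the lowest of the 5 complexes relative to WT ESC, with a median ratio of 0.518 over 11 listed subunits, and complex II the highest, at 0.767 over 4. ATP synthase stood at 0.646, complex III at 0.623 and complex I at 0.710. Among these 59 members, the lowest ratios were those of Cox5a (0.366, counting interval 0.327 to 0.410), Atp5g1, which encodes the membrane c subunit of ATP synthase (0.383, 0.256 to 0.553), Uqcr11 (0.388, 0.276 to 0.545), Cox6c (0.391, 0.336 to 0.456) and Cox6b2 (0.437, 0.299 to 0.626). The c subunit is encoded by 3 genes, and they differed: the ratio was 0.383 for Atp5g1, 0.533 for Atp5g2 and 0.989 for Atp5g3. Atp5g3 stood at 4.34 RPKM in WT ESC and 4.30 in WT CM.

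The KO pair gave smaller differences. In KO CM against KO ESC 8 of 53 members were at least 1.5-fold lower (14.4% of all genes in the filter) and 1 was higher (19% of all genes), with a median ratio of 0.883 for members and 0.968 for all. The 8 lower members were Atp5b, Atp5g1, Cox5a, Cox6c, Cox7c, Ndufa7, Ndufaf4 and Ndufs6, and each of them was also lower by that fold in WT CM against WT ESC. Their ratios lay between 0.550 (Ndufs6) and 0.620 (Atp5g1). Cox5b, a nuclear subunit of complex IV, was the higher member, at a ratio of 1.53 (counting interval 1.12 to 2.12). Both comparisons of CM with ESC use different libraries, so they share no sample, while each comparison of genotypes below shares 1 library with each of them.

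**Figure D2:**
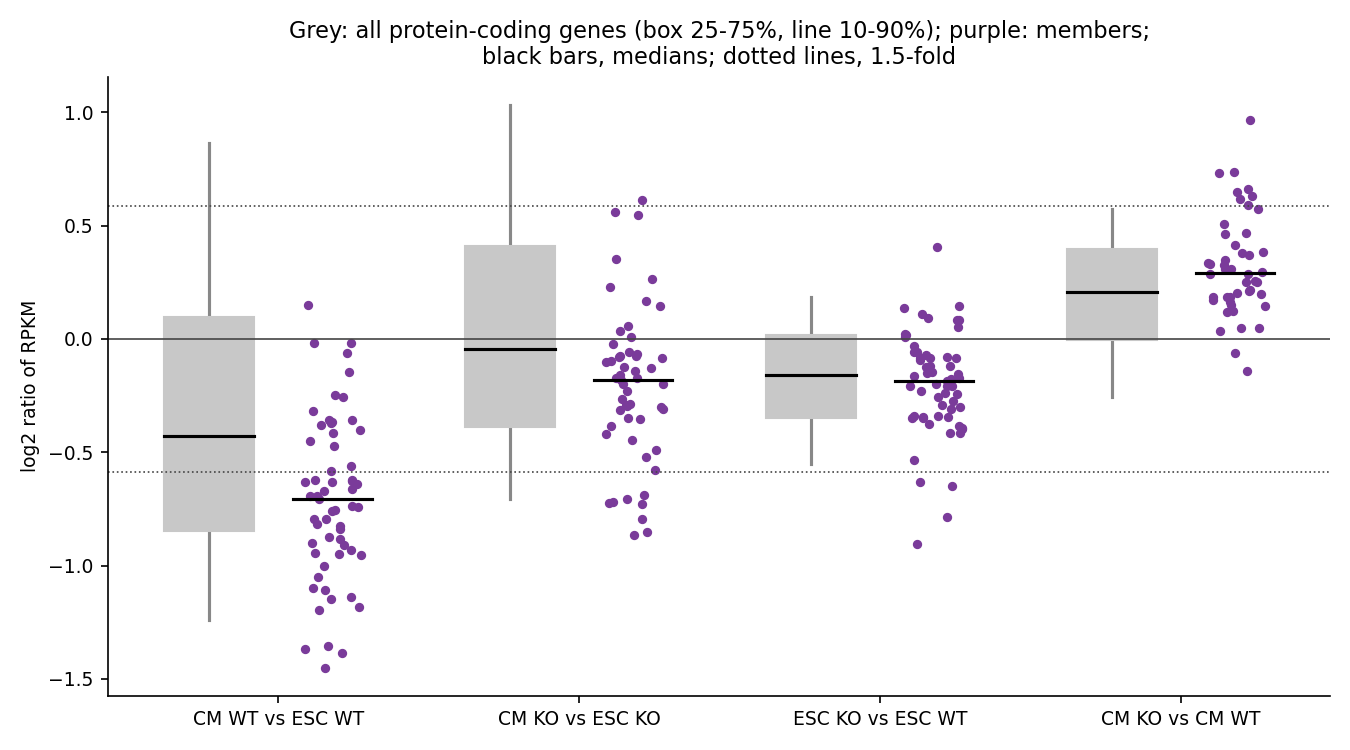
Log2 ratio of RPKM for the members (purple points) and for all protein-coding genes of at least 1 RPKM in either library (grey), in the 4 comparisons, with black bars at the medians and dotted lines at 1.5-fold. In WT CM against WT ESC 40 of 59 members lie below the lower line, and in KO CM against WT CM 8 of 46 lie above the upper line.

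Between genotypes, 48 of 59 members were lower in KO than in WT ESC, as were 73.0% of all genes, and 2 of 46 were lower in KO than in WT CM, against 25.5% of all genes. After scaling of the libraries to equal all-gene medians, 33 of 59 members were below 1 in ESC and 16 of 46 in CM. In ESC 4 of 59 members were at least 1.5-fold lower in KO (8.55% of all genes) and 0 higher (1.07%), with a median ratio of 0.880 for members and 0.895 for all genes. The 4 were Ndufv3, an accessory subunit of the NADH-oxidising module (0.534, counting interval 0.449 to 0.632), Cox5b (0.581, 0.419 to 0.788), Uqcr11 (0.637, 0.479 to 0.858) and Atp5d, the delta subunit of ATP synthase (0.646, 0.528 to 0.789). In CM 8 of 46 members were at least 1.5-fold higher in KO (9.56%) and 0 lower (3.14%), with a median ratio of 1.22 for members and 1.15 for all genes. These were Cox5b (1.96, counting interval 1.41 to 2.79), Cox7b (1.66), Cox6b2 (1.66), Ndufa2 (1.58), Cox5a (1.57), Atp5md (1.55), Cox8a (1.53) and Ndufc1 (1.51). Ndufa2, Atp5md and Atp5d overlap the genes Tmco6, Taf5 and Cbarp, in that order. The part of those genes in these values was not tested.

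Cox5b was past the fold in all 4 comparisons, which share libraries. It stood at 2.15 RPKM in WT ESC, 1.25 in KO ESC, 0.974 in WT CM and 1.91 in KO CM, from an estimated 114, 66, 54 and 108 reads. The order of its levels therefore reversed between the cell types: WT above KO in ESC and KO above WT in CM. Uqcr11 had a like order, at 1.17, 0.743, 0.452 and 0.760 RPKM. Ndufv3, at 1.26, 0.673, 0.791 and 0.819 RPKM, was low in KO ESC and near equal in the CM libraries.

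Across the 85 members listed 4 times, WT CM was the lowest library for 71. Among genes of at least 1 RPKM in some library, this held for 51 of 59 members and for 53.1% of all genes. KO was below WT in ESC and above WT in CM for 61 of the 85, or 46 of 59 members in the same filter against 51.3% of all genes. All genes together shifted in the same direction as the members in each comparison: the median log2 ratio over all genes was -0.43 in WT CM against WT ESC, -0.05 in KO CM against KO ESC, -0.16 in KO against WT ESC and 0.21 in KO against WT CM. After each library was scaled to remove that shift, 44 of the 59 members were below 1 in WT CM against WT ESC, and the 11 at least 1.5-fold lower were Atp5g1, Atp5l, Cox5a, Cox5b, Cox6b2, Cox6c, Cox7b, Ndufa7, Ndufb3, Ndufs6 and Uqcr11. With scaling, 2 members were past the fold in KO against WT ESC (Cox5b and Ndufv3, both lower), 1 in KO against WT CM (Cox5b, higher), and in KO CM against KO ESC 8 were lower and 3 higher (Cox5b, Ndufa2 and Ndufb11).

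The other genes of the pathway are given beside the same shares of all genes. Their ratios were not scaled to remove the shift of all genes. For the members, that scaling cut the lower genes in WT CM against WT ESC from 40 to 11. Of 36 assembly factors outside the symbol rule, 17 passed the filter in WT CM against WT ESC, with 9 at least 1.5-fold lower (40.3% of all genes), 0 higher (13.4%) and a median ratio of 0.658 (0.744 over all genes). The 9 were Surf1, Cox14, Cox17, Sco1, Ttc19, Uqcc1, Foxred1, Acad9 and Coa7. In KO against WT CM 2 of 12 were higher (9.56% of all genes), Cox11 and Sco2, which both serve copper and complex IV assembly. The 8 Ndufaf assembly factors had a median ratio of 0.533 in WT CM against WT ESC, and all 8 were below 1. Of 11 transcriptional regulators and mitochondrial DNA factors, 6 passed the filter, and Gabpa, Tfam and Tfb2m were at least 1.5-fold lower in WT CM, with 0 higher, against the same shares of all genes. Cycs, which encodes the electron carrier cytochrome c, stood at 0.308 to 0.486 RPKM in the 4 libraries. The 13 mitochondrially encoded subunits were not listed in these files and are not analysed here.

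Among genes of at least 0.5 RPKM, m6A was listed in a smaller share of respiratory chain genes than of all genes. Members with at least 1 position numbered 27 in WT ESC, 41 in KO ESC, 41 in WT CM and 23 in KO CM, or 47 in any list. Over genes listed in the chrRNA file, the share with a position was 35.3%, 35%, 47% and 31.2%, set against 27 of 86, 41 of 85, 41 of 88 and 23 of 87 listed members, so by this measure KO ESC members were above all genes. Over genes of at least 0.5 RPKM it was 63%, 65.8%, 77.1% and 55.5%, against 26 of 79, 38 of 76, 38 of 70 and 21 of 76 members. Members are short, with a median span of 7228 bases against 17146 for all protein-coding genes. Among genes of at least 0.5 RPKM with spans of 2343 to 27563 bases, 35.4%, 47.6%, 49.2% and 28.1% of members had a position, against 56.5%, 59.6%, 71.6% and 48.4% of all genes. The limits of level and span were chosen after the values were seen, and each group had 1 list.

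By complex, m6A was listed in any group for 12 of 37 complex I subunits, 3 of 4 complex II subunits, 6 of 8 complex III subunits, 8 of 12 complex IV subunits and 13 of 17 ATP synthase subunits. No heart isoform had a position. The most positions over the lists were in Atp5b (6), Atp5a1 (5), Sdha (5), Atp5o (4), Ndufaf1 (4) and Ndufs1 (3). Of the 5 positions of Sdha, each was on 1 list only, and none was on the WT ESC or KO CM list. The 5 of Atp5a1, which encodes the alpha subunit, included 1 on all 4 lists, 295 bases from the gene start.

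The listed positions of respiratory chain genes lay at the gene start more often than those of all genes. Positions are offsets from the gene's 5′ end, counted from 0, and the 4 letters on the list matched the RefSeq start at that offset for 52.1% of positions near plus-strand starts and 42% near minus-strand starts, with at most 2.52% at the 4 neighbouring shifts tried. In the first 100 bases lay 13 of 35 member positions in WT ESC (37.1%), 26 of 52 in KO ESC (50%), 24 of 55 in WT CM (43.6%) and 15 of 24 in KO CM (62.5%). Over all protein-coding genes the shares were 2.53%, 4.13%, 3.80% and 3.96%. Among genes of 2343 to 27563 bases the shares were 34.4%, 51.2%, 45.2% and 57.1% for members and 3.72%, 6.49%, 5.75% and 6.05% for all genes. The 100-base limit was set after the positions were seen.

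**Figure D3:**
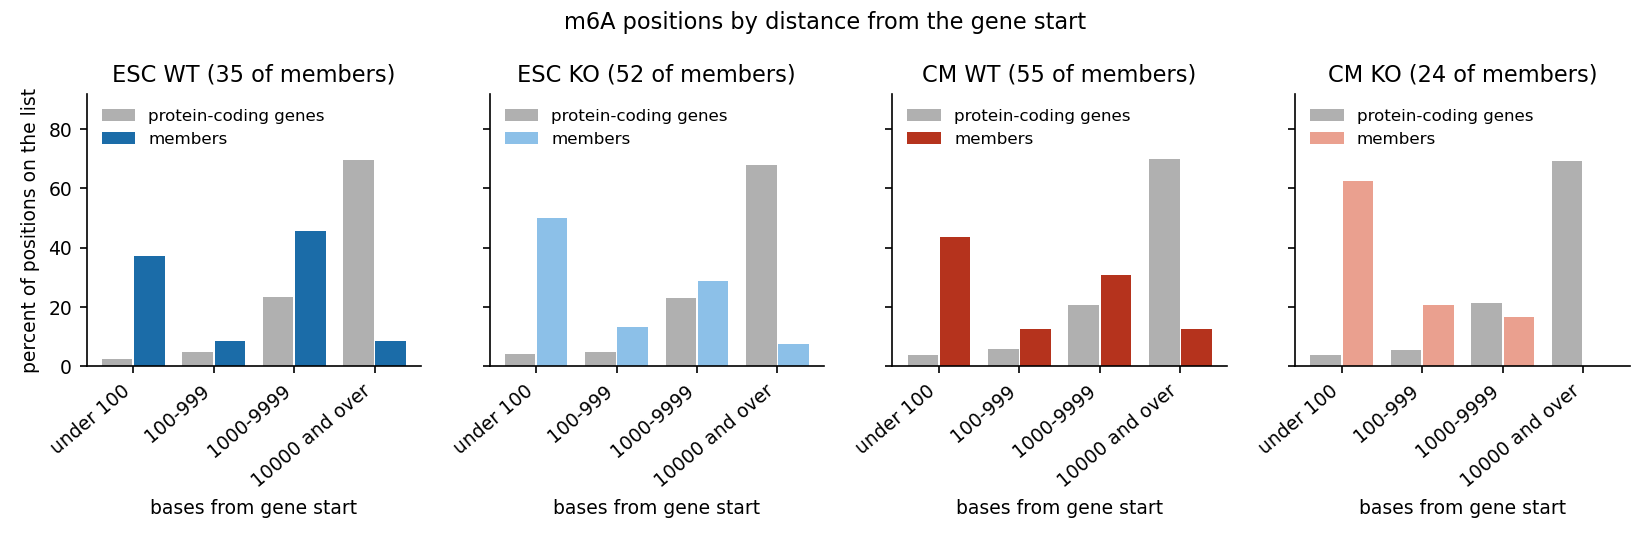
Share of listed m6A positions (percent) by distance from the gene start in bases, for members (coloured) and for all protein-coding genes (grey), 1 panel per list. In each list the members have their excess in the first 100 bases (37.1% to 62.5% against 2.53% to 4.13%) and all genes have most positions in the farthest bin.

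These start positions were also the ones most shared between lists. Of 29 distinct member positions in the first 100 bases, 10 were on all 4 lists (34.5%), against 6 of 51 farther on (11.8%). Over all genes these shares were 18.05% and 10.03%. All 13 of the WT ESC list were also on the KO ESC list, and 14 of the 24 on the WT CM list were also on the KO CM list. Farther than 100 bases the counts were 12 of 22 in ESC and 7 of 31 in CM. The positions within 100 bases on all 4 lists lay in Atp5b, Atp5g3, Cox5b, Cox6b2, Cox6c, Cox7b, Cox8a, Ndufa7, Sdhc and Uqcrc2. Over all genes, 82.0% of near positions on the WT ESC list were also on the KO ESC list, against 53.2% of those farther on, and in CM the shares were 46.5% and 35.1%. The Mettl3-KO lists held positions of these genes at similar or larger numbers in ESC (52 against 35) and at smaller numbers in CM (24 against 55). In protein-coding genes the whole KO list was slightly longer in ESC (17280 against 16254 positions) and shorter in CM (13208 against 24365).

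Of 6 member positions near enough to the start to be read in the promoter table, the 4 listed letters matched at 2, in Atp5c1 and Sdhd, and did not match at 4, in Atp5b, Atp5md, Cox5b and Ndufb8. The 30-base windows of the matches are shown with the listed letters in capitals. The Atp5c1 position, 24 bases from the start, was on 3 lists (not KO CM), and the Sdhd position, 2 bases from the start, was on the KO ESC and WT CM lists.
Atp5c1, chr2:10080470-10080499, minus strand: ttagcgagaccgaGGACgcaggcggagcgg
Sdhd, chr9:50603831-50603860, minus strand: tttacgcggggcgGGACttactacataact

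Chromatin at the starts of respiratory chain genes was accessible in every group. An ATAC interval within 1 kb of a start was called in all 12 libraries for 88 of 96 members (91.7%), against 63.0% of all protein-coding genes and 95.8% of those of at least 0.5 RPKM. All members of complexes II and III, of ATP synthase and of the Ndufaf factors were in this count. The exceptions included Cox7b, Cox6a2, Cox7b2, Cox8b, Cox8c, Ndufb4b and Ndufb4c. The fold enrichment of the start intervals, the authors' own value per peak, ranked high within each library, with a median percentile of 87.3 ± 0.685 in WT ESC and 91.7 ± 0.278 in WT CM (SD, n = 3). Ranks from lists of different length are given as a description only.

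The heart isoforms differed from each other in accessibility. Cox7a1, which had no RNA value, had an interval at its start in all 12 libraries, and the region merged over them (chr7:30183868-30184571) includes the 100 bases printed above. A second region, 3093 bases past its start (chr7:30187067-30187463) was present in the 3 WT ESC libraries and in no other. Cox8b had no interval in the gene plus 2 kb in any library. Cox6a2, for which the tables used give no strand, had an interval overlapping the gene within 1 kb of an end (chr7:128205878-128206228). It was called in 3 WT ESC, 1 KO ESC, 0 WT CM and 2 KO CM libraries. Without a strand, this interval cannot be assigned to the gene start. Another region beside the gene (chr7:128208210-128208520) went the other way, with an interval in 1 WT ESC, 1 KO ESC, 3 WT CM and 3 KO CM libraries. The span of Cox6a2 overlaps the gene Itgad. None of the 3 showed an interval gained in WT CM in 3 of 3 libraries against 0 of 3 in WT ESC.

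The number of intervals at the starts changed little between groups, while intervals elsewhere in the members were fewer in CM. At the starts there were 109.3 ± 1.53 intervals per library in WT ESC, 107.7 ± 2.31 in KO ESC, 101.3 ± 4.62 in WT CM and 102.0 ± 3.0 in KO CM (SD, n = 3). Elsewhere in the genes plus 2 kb there were 89.3 ± 8.50, 86.7 ± 1.15, 54.0 ± 1.0 and 49.7 ± 4.62. Both ESC groups lay above both CM groups in each library for the second count (83 to 99 against 47 to 55). The whole lists were also shorter in CM, at 112498 ± 6215 intervals in WT ESC, 114630 ± 2404 in KO ESC, 88786 ± 5064 in WT CM and 73172 ± 3128 in KO CM. Starts with an interval changed little over all protein-coding genes too. Their mean share was 69.1%, 69.2%, 67.7% and 66.5% in the same order, and 95.5%, 95.1%, 93.1% and 93.8% for members.

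**Figure D4:**
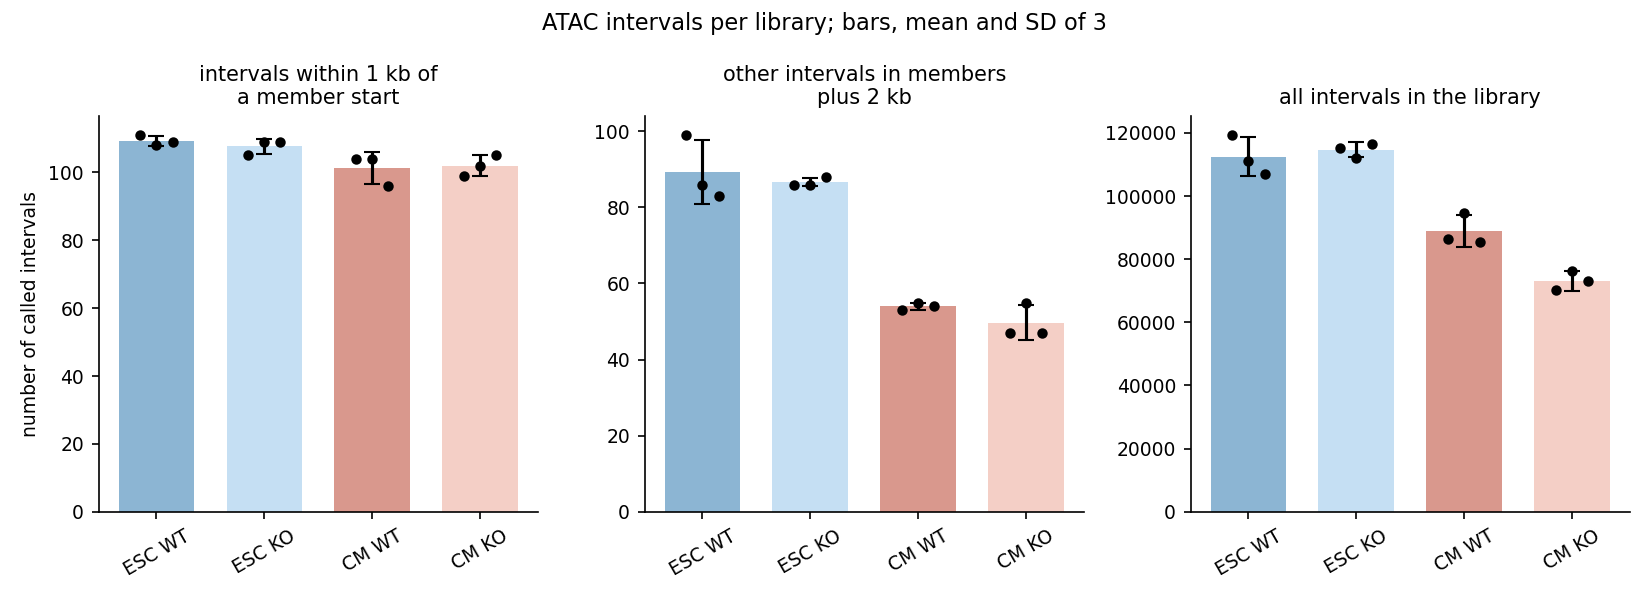
Number of called ATAC intervals per library within 1 kb of member starts (left), elsewhere in members plus 2 kb (middle) and in the whole library (right), with points for the 3 libraries, bars for the mean and error bars for the SD. The middle panel separates ESC (83 to 99) from CM (47 to 55), while the left panel stays between 96 and 111.

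The base pairs covered by intervals in each gene plus 2 kb were tested by exact permutation, with cell type permuted within genotype and Benjamini-Hochberg adjustment over 18056 genes. In CM against ESC 39 of 93 members were called at adjusted p under 0.05, 38 lower and 1 higher, while 61.7% of all genes were called and 60.6% were called lower. The share of members was thus below that of all genes. The largest differences in base pairs were in Ndufs4, an accessory subunit needed for stable complex I, and in the assembly factors Ndufaf2, Ndufaf6 and Ndufaf5. Ndufs4 and Ndufaf2 span 100300 and 106064 bases, against a member median of 7228, and base pairs were not divided by span. Ndufs4 covered 2749 to 2991 bp in WT ESC, 2884 to 3164 in KO ESC, 1557 to 2010 in WT CM and 1373 to 1715 in KO CM. Its ESC and CM libraries did not overlap, and the mean difference was -1297 bp (exact permutation test, two-sided, p = 0.005, the smallest the design allows, adjusted p = 0.0115). The differences were -1230 bp for Ndufaf2, -837 bp for Ndufaf6 and -812 bp for Ndufaf5, at the same adjusted p. With the same number of intervals kept in each library, the order changed. The differences were then -830 bp (Ndufaf6), -697 bp (Ndufv3), -629 bp (Ndufs4), -586 bp (Ndufaf5) and -368 bp (Ndufaf2).

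Other large differences, also at adjusted p = 0.0115 by the exact permutation test, were in Sdhb (-796 bp), Atp5a1 (-767 bp), Ndufv3 (-717 bp), Sdhc (-670 bp) and Uqcr10 (-556 bp). Sdhb and Sdhc encode the iron-sulfur subunit and a membrane anchor of complex II. Uqcr10 held 1 interval in each library other than KO CM replicates 2 and 3, and it was narrower in CM (857 to 1009 bp) than in ESC (1411 to 1535 bp). Uqcrq of complex III was the only member called higher, with 933 to 1084 bp in ESC and 1075 to 1145 bp in CM, so its cell types overlapped slightly (difference 112.5 bp, adjusted p = 0.0198, exact permutation test). With the same number of intervals kept in each library, 27 members were called, 24 lower and Cox6a2, Ndufs8 and Uqcrq higher, with 34.2% of all genes called. Without KO CM replicate 3, the library with the deviating label, 38 members were called, with 56.6% of all genes called.

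For Mettl3 KO against WT, 0 members and 0 of 18056 genes (0%) passed the exact permutation test after adjustment. At an unadjusted p under 0.05 there were 20 members and 3194 genes, and the smallest adjusted p was 0.127. Because the smallest p is 0.005, no gene could pass before 1806 genes reached it. Members at that smallest p were Ndufb4, Uqcr11 and Uqcrfs1, the last the Rieske iron-sulfur protein of complex III, all with fewer base pairs in KO. The share of all genes at that p is not given here, so no excess of members is shown. With the same number of intervals kept in each library, the unadjusted p of the same test was 0.24 for Ndufb4. It stayed at 0.005 for Uqcr11 and Uqcrfs1. Uqcr11 covered 573 to 987 bp in WT ESC and 401 to 522 bp in KO ESC, and 520 to 669 bp in WT CM and 425 to 459 bp in KO CM, so WT and KO did not overlap in either cell type. The difference of the KO effects between CM and ESC gave 0 calls (0% of genes), with 8 members and 2417 genes at an unadjusted p under 0.05 and a smallest adjusted p of 0.173.

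Merged over the 12 libraries, the members plus 2 kb held 254 regions, 115 at a start and 139 elsewhere. An interval in all 12 libraries was found for 122 of the 254 (48.0%), against 24.4% of the 114793 regions of all protein-coding genes. Of the 122, 93 were at starts (80.9% of start regions) and 29 elsewhere (20.9%). The all-gene regions were not split in this way. A region was counted as opened or closed where all 3 libraries of a group had an interval and none of the other group did. This count by region was chosen after other values were seen, it has no test, and a region can lie in a neighbouring gene. In WT CM against WT ESC 26 member regions closed (10.2%, against 10.7% of all) and 3 opened (1.18%, against 5.09%). In KO CM against KO ESC 17 closed (6.69%, against 9.24%) and 0 opened (0.791% of all). In KO against WT ESC 4 closed (1.26% of all) and 1 opened (1.08%), and in KO against WT CM 3 closed (3.39%) and 0 opened (0.626%).

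The 3 regions opened in WT CM lay in 2 genes. In Ndufa10, an accessory subunit of complex I, they lay within the gene, 31993 bases (chr1:92441677-92441989) and 25360 bases (chr1:92448296-92448635) from its start. The first was called in 3 WT CM libraries and in no other, and the second in 3 WT CM and 1 KO CM library. In Sdhd, a membrane anchor of complex II, the region lay past the end of the gene, 8804 bases from its start (chr9:50594755-50595337), and it was called in the 3 WT CM libraries only. The chromatin RNA of both genes was lower in WT CM than in WT ESC, at 0.793 against 1.22 RPKM for Ndufa10 and 1.19 against 1.54 for Sdhd. Regions closed in both genotypes, present in 6 ESC libraries and 0 CM libraries, lay in or near Atp5a1, Atp5o, Cox6b1, Ndufaf5, Ndufs1, Ndufs4 and Sdhb, among others, with 2 in Ndufs4.

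**Figure D5:**
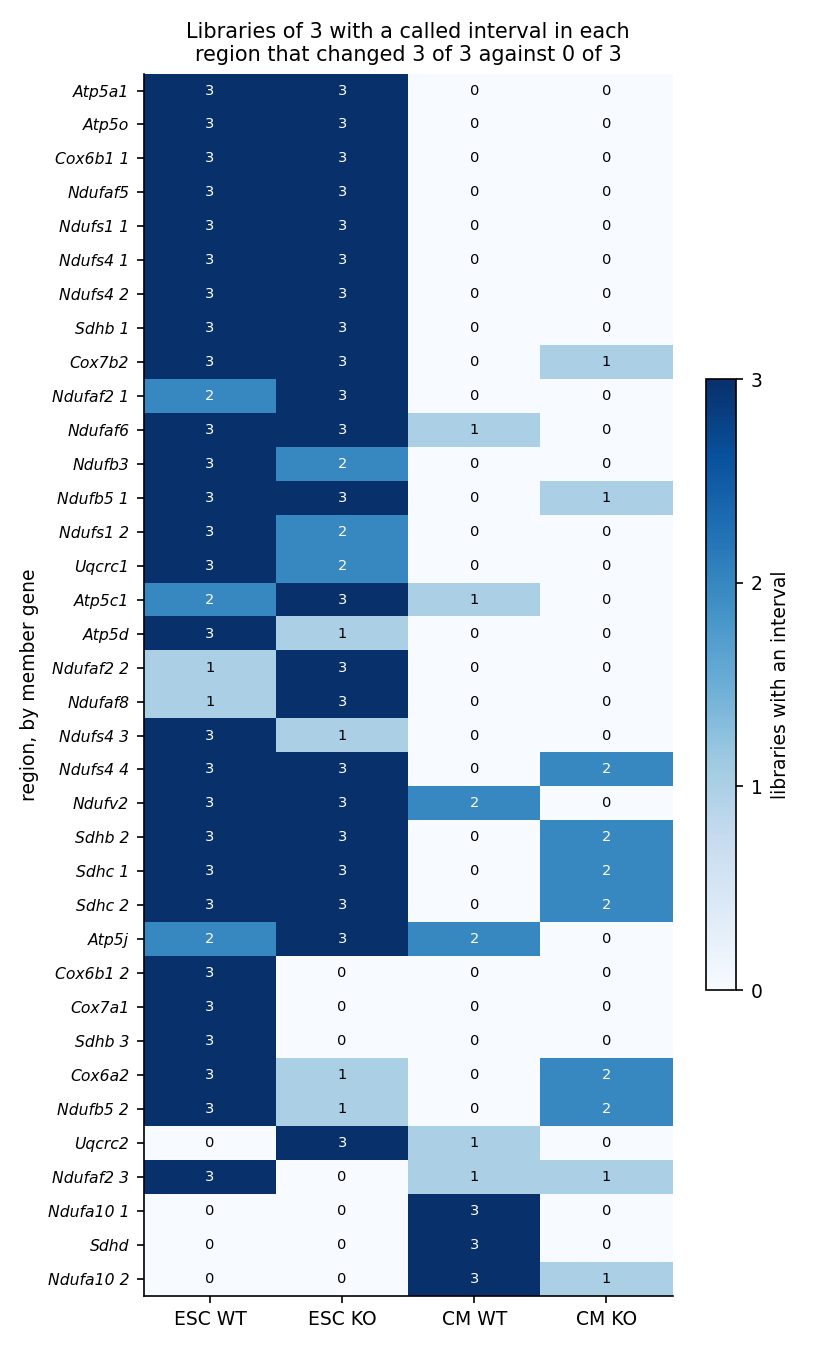
Number of libraries (of 3 per group) with a called interval in each of the 36 member regions shown that changed from 3 of 3 to 0 of 3, or the reverse, in any comparison, with rows sorted from ESC to CM. The upper rows are present in ESC and absent in CM, and the lowest rows show the Ndufa10 and Sdhd regions called in all 3 WT CM libraries.

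At the starts themselves, 1 member closed in WT CM against WT ESC (Cox6a2, against 1.21% of all starts), 1 in KO CM against KO ESC (1.05%), 1 in KO against WT CM (0.635%) and 0 in KO against WT ESC (0.114%). In no comparison did a member start open, against 0.726% of all starts in WT CM against WT ESC, 0.1% in KO CM against KO ESC, 0.174% in KO against WT ESC and 0.164% in KO against WT CM. Cox7b, a small subunit of complex IV, had its start interval in all 6 ESC libraries, in 1 of 3 WT CM and in 2 of 3 KO CM libraries, and it covered 285 to 371 bp in ESC against 0 to 175 bp in CM (adjusted p = 0.0115, exact permutation test). With the same number of intervals kept in each library, the Cox7b difference was 1.83 bp and it was not called.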

How the data were processed

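ChrRNA and m6A came as 1 table per group and ATAC-seq as 1 peak list per library. RPKM values per gene were computed by the authors, as deposited; the m6A lists give a position and 4 letters per site. The deposited peak lists give, per interval, the peak score, the fold enrichment and the −log10 p and −log10 q, in the layout of MACS2. Per the submitters' processing notes, cutadapt, Bowtie, HISAT2, Picard, MACS2 and mm10 were used, with no roles or versions; the counter and its gene models are not stated in the labels or files. Gene positions and promoters were those of RefSeq (GRCm38.p6), and 22221 of 22332 identifiers had a symbol.

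Members, gene lists and tests were chosen with earlier results of these data known. ChrRNA libraries were compared by RPKM ratio, for genes of at least 1 RPKM in either library, with a fold of 1.5 and, on the log scale, a pseudocount of 1. Reads were estimated from the steps of low values, of which 59.9% to 63.7% lay within 0.05 of a whole number, so they are approximate, and 95% intervals on ratios cover counting error only. ATAC intervals overlapping a gene plus 2 kb, or within 1 kb of a start, were counted; where no strand was given, both ends counted as starts. Base pairs covered were tested by exact permutation over 400 arrangements, two-sided, with Benjamini-Hochberg adjustment over 18056 genes. On simulated data for CM against ESC (18056 genes), changed genes were shifted by 4 within-group SD, with noise independent between genes. With 200 changed genes, 95% of them reached the smallest p and 0% were called, and with 10833 changed, 99.97% were called. Shifts of depth or list length shared by all genes were not simulated, so these shares do not give the power in the real libraries. Base pairs covered depend on depth and on the caller's threshold, which differ by library; the read depth of the ATAC and m6A libraries is unknown here.

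Genes were named by a rule: heart isoforms and their paralogs, the highest member of each complex, members past 1.5-fold (the 5 largest each way where over 10), starts opened or closed, and the members with the most m6A positions or the largest called ATAC differences. Other genes were named after their values were seen. Python 3.11.15, pandas 2.3.3, numpy 2.4.6 and matplotlib 3.10.9 were used. Results of 1 member, counted in the totals, are not reported here.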

Additional observations from a re-analysis of the deposited data

Results flagged for a closer look

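The median log2(RPKM + 1) difference of the members between KO and WT had opposite signs in the cell types, at -0.120 in ESC (59 members, 48 below 1 by ratio) and 0.174 in CM (46 members, 44 above 1). The difference between them was not tested, with 1 library per group. Over all genes the medians were -0.10 and 0.13, and after scaling of the libraries to equal all-gene medians those of the members were -0.0144 and 0.0481. By ratio, 73.0% of all genes were below 1 in ESC and 25.5% in CM, and after scaling 33 of 59 members were below 1 in ESC and 16 of 46 in CM.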

How the results depend on the processing

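At 2-fold, 12 members were lower in WT CM against WT ESC, and 0 were past the fold in KO CM against KO ESC (lower or higher), KO against WT ESC (lower) or KO against WT CM (higher). Without the level filter, 1 member was higher in WT CM against WT ESC, 1 higher in KO against WT ESC and 1 lower in KO against WT CM, and the median in KO CM against KO ESC was -0.0707. With scaled libraries the counts were 11 lower, 3 higher, 2 lower and 1 higher in the order WT CM against WT ESC, KO CM against KO ESC, KO against WT ESC and KO against WT CM, with medians of -0.174 in WT CM against WT ESC, -0.0144 in KO against WT ESC and 0.0481 in KO against WT CM. With a pseudocount of 0.1 the medians were -0.659 in WT CM against WT ESC and 0.273 in KO against WT CM. No median changed its sign in these settings.

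Among the 64 members that overlap no other gene, 17, 26 and 24 had an m6A position in WT ESC, KO ESC and WT CM. This restriction drops members, and it was not run for chrRNA or ATAC. Positions within the RefSeq span, an alternative chosen after seeing the data, moved no count by over 1.5 times. Alternatives with m6A in gene plus 2 kb and with lists of equal length were not run.

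In CM against ESC 9 members were called from the number of intervals (15.5% of all genes) and 0 with the replicate block, whose 64 arrangements allow no p under 0.03125. The deviations of same-numbered libraries correlated at -0.0197 to 0.0324. No pairing by number was seen, but called intervals in 3 libraries per group could miss a shared culture or batch. Leaving out 1 library gave 33 to 43 members called in CM against ESC, with 56.1% to 62.6% of all genes called. It gave 0 members, and 0% of all genes, for KO against WT and for the difference of KO effects.

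Starts closed in WT CM against WT ESC numbered 0 at −log10 q of at least 5 and with equal numbers of intervals, and 1 to 2 without 1 library (2 without WT CM replicate 1). In KO CM against KO ESC there were 0 with at least 0.5 of the interval required in the window, and 1 to 2 without 1 library (2 without KO ESC replicate 1); 1 opened at −log10 q of at least 5 and with equal numbers. In KO against WT ESC 1 closed under both of those settings, and 0 to 1 without 1 library (1 without KO ESC replicate 2). In KO against WT CM 0 closed at −log10 q of at least 5, and 0 to 1 opened without 1 library (1 without KO CM replicate 1 or 3). The cause of these changes was not tested.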
